A study of Mus musculus with 6 samples.

Results

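The cadherin and protocadherin genes were taken as every row of the deposited tables whose symbol begins with Cdh and a digit, begins with Pcdh, or is Celsr1, Celsr2 or Celsr3, a rule that uses no measured value. It gave 96 of 23038 genes, of which 58 belong to the protocadherin α, β and γ clusters (14, 22 and 22 rows) and 38 lie outside them. Their transcript levels were compared in mouse primary oligodendrocyte precursor cells (mOPCs), the glial precursors that give rise to myelinating oligodendrocytes. There were 3 libraries from mOPCs treated with a control siRNA (siNC) and 3 from mOPCs treated with siRNAs against Qk (siQk), which encodes the RNA-binding proteins Qki5, Qki6 and Qki7. The study's methods state that the cells were isolated from mouse embryos by immunopanning, and both groups were harvested 72 h after transfection. Different siRNAs against Qk were used, and which of them each siQk library received is not given in the sources used here. No genotype is given for either group.

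Cadherins are calcium-dependent adhesion proteins of the plasma membrane. The classical type I and type II cadherins bind like cadherins on a neighbouring cell and are tied to actin inside the cell by catenins, whereas the seven-pass Celsr proteins act with Frizzled, Vangl and Prickle proteins in planar cell polarity. Protocadherins are the largest branch of the family. The non-clustered δ-protocadherins are single genes, and the clustered ones are arrays in which each first exon has its own promoter. In the α and γ arrays the first exons are joined to constant exons shared by the whole array, while β genes consist of a single coding exon. In the oligodendrocyte lineage, N-cadherin (Cdh2) is known for contacts with axons and astrocytes.

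Library totals ranged from 58166490 to 141045937 tags, and the members held 0.377% to 0.421% of the tags in siNC and 0.370% to 0.376% in siQk. A tag number is the authors' estimated count of sequenced fragments on a gene, and RPKM relates it to the length of the exons and to all tags of the library. Qk itself lay at 209, 206 and 163 RPKM in siNC replicates 1 to 3 and at 51.3, 76.6 and 36.2 RPKM in siQk replicates 1 to 3 (log2 fold change -1.98, FDR 0.00311, edgeR's quasi-likelihood test). The smallest library, siNC replicate 1, stood apart in its share of tags on Rn45s, a ribosomal RNA gene, which was 3.11%, whereas the others had 0.169% to 0.389%. Of 8 precursor markers all were detected, 3 were called higher and 1 lower, and they summed to 1023 to 1100 RPKM in siNC and 1217 to 1370 RPKM in siQk. Of 6 myelin genes 5 were called lower, with sums of 2358 to 4542 RPKM in siNC and 957 to 1566 RPKM in siQk, and of 5 tested astrocyte markers 4 were called lower, with sums of 97.1 to 156 RPKM and 30.7 to 34.0 RPKM. The 8 neuronal markers summed to 144 to 214 RPKM in siNC and 117 to 163 RPKM in siQk, of which Tubb3 and Elavl3 made up most, and 2 of the 7 tested were called higher. The microglial list summed to 0.705 to 3.30 RPKM and 0.304 to 0.403 RPKM, and the fibroblast and mural list to 0.192 RPKM at most. The endothelial list summed to 2.32 to 4.86 RPKM in siNC and 3.50 to 4.62 RPKM in siQk, nearly all of it from Kdr at 2.27 to 4.70 RPKM, while Cldn5 was at 0 in all libraries. The epithelial list summed to 0.161 to 0.364 RPKM and 0.109 to 0.136 RPKM, from Epcam, with Krt18 at 0. In such bulk samples, fewer cells of a type and less RNA per cell cannot be told apart, and the part of cell composition in the values that follow was not tested.

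After Qk knockdown, more cadherin-family transcripts were lower than higher. Of the 96 members, 68 had an average logCPM over 0 and were tested, where CPM is the tag number relative to the library total. With P under 0.01 and FDR under 0.1 as the cutoffs, 28 were called changed, which is 41.2% of them against 31% of all tested genes. The calls comprised 26 lower members, 38.2% of those tested against a background of 17.2% for lower genes, and 2 higher members, 2.94% against 13.8%. The median log2 fold change, siQk over siNC, was -0.42 over the 68 members and 0.01 over all tested genes, with 59 members below 0 and 9 above. The RPKM ranges of the groups did not overlap for 33 tested members (26 lower and 7 higher), or 48.5%, while 58.3% of all tested genes had non-overlapping ranges. Fold changes come from counts scaled with TMM factors, which were 0.899 to 0.987 in siNC and 1.05 to 1.07 in siQk, so that they lie below the plain ratio of RPKM means. The excess of calls over the background depended on the libraries and on the scaling. Without siQk replicate 1, 12 members were called (17.6%, against 19.8% of all genes tested then), and without siQk replicate 2, 13 were called (19.1% against 21.5%). Scaling by library size only gave 15 calls (22.1% against 34.8%), 13 of them lower, and shifted the median log2 fold change of all genes to 0.16. The share of lower members was 14.7%, 16.2% and 19.1% under these 3 settings, and that of all genes 11.7%, 12.7% and 10.9%.

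**Figure D1:**
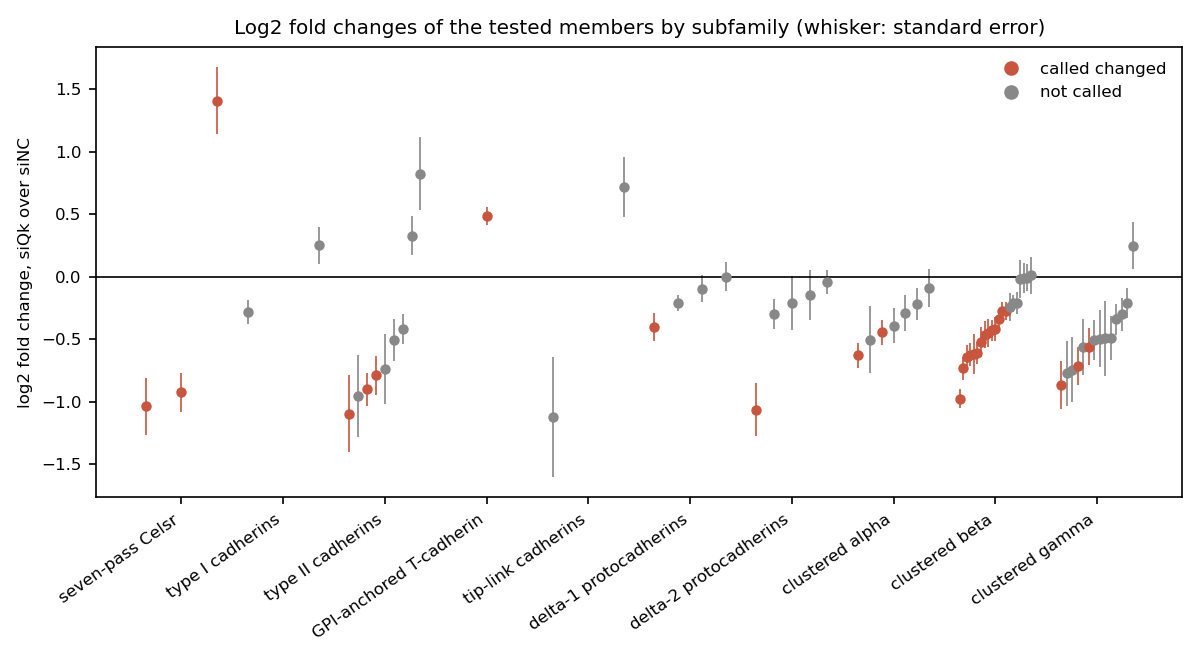
Log2 fold change (siQk over siNC, vertical axis) of the 68 tested members, grouped by subfamily and ordered by value within each. Points are estimates from edgeR, whiskers are standard errors, and red marks the 28 called members. Celsr3 and Cdh13 are the only red points above 0, and nearly all points of the 3 clusters lie below it.

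Outside the clusters, 26 of 38 members were tested and 9 were called, 7 lower (Celsr1, Celsr2, Cdh19, Cdh20, Cdh22, Pcdh7 and Pcdh18) and 2 higher (Celsr3 and Cdh13). That is 34.6% of the tested ones, near the 31% of all genes, and their median log2 fold change was -0.29. The most abundant in siNC was Cdh2, whose siNC range lay above those of all others. It was followed by Cdh11, Celsr2, Pcdh10, Cdh20 and Cdh22, each with an siNC range that overlaps that of its neighbour in this order. DESeq2's Wald test called 15 of the 26, and 39.1% of all tested genes. With edgeR's likelihood ratio test 14 of them were called, and 34.4% of all tested genes.

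**Figure D2:**
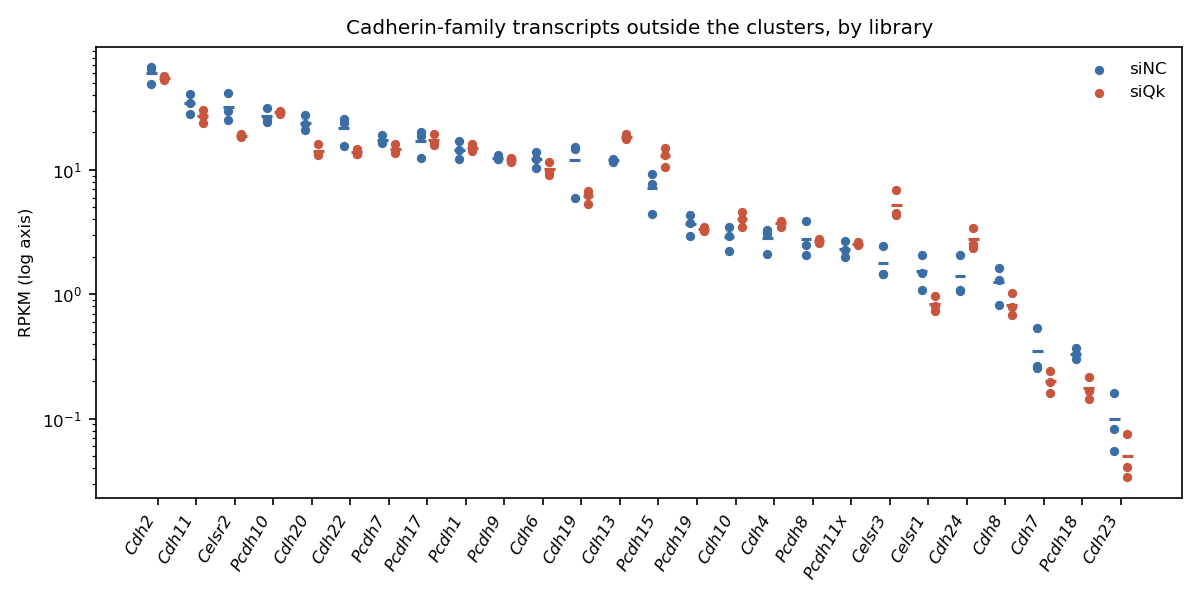
RPKM (vertical log axis) of the 26 tested members outside the clusters in each library, ordered by the siNC mean. Points are libraries and bars are group means, with siNC in blue and siQk in red. The siQk points of Celsr3, Cdh13 and Pcdh15 lie above all their siNC points, and those of Celsr2, Cdh20 and Cdh22 lie below.

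Qki proteins bind RNA at the sequence ACUAAC or ACUAAU, which is why the 3' untranslated regions (3'UTRs) of the members were searched for these letters, as ACTAAC or ACTAAT on the sense strand of the longest GENCODE M21 3'UTR (GRCm38). At least 1 match was present for 13 of the 26 tested members outside the clusters (50%) and for 37.1% of 10844 tested genes with a 3'UTR, and matches occurred at 0.369 and 0.328 per kilobase. Of the 9 called members, 3 had a match (33.3%), against 10 of the 17 that were tested and not called (58.8%). Each of these 3 had a single match, which is shown in capitals with 12 bases on either side. They are the changed members outside the clusters whose annotated 3'UTR holds the letters. Among all called members, clustered rows included, 40.7% of the 27 with a 3'UTR had a match. With these flanking bases, the stretch shown for Celsr2 lies at chr3:108390973-108391002 on the minus strand. That for Pcdh7 lies at chr5:58130338-58130367 on the plus strand, and that for Pcdh18 at chr3:49744212-49744241 on the minus strand.
Celsr2: tgctaacttgatACTAACcatcagattgta
Pcdh7: gaaaatgaaagaACTAACtagacatgtgtt
Pcdh18: ataaacaacaccACTAATgcattgtgtaat
Celsr2, Pcdh7 and Pcdh18 were lower in siQk. The other 4 called members outside the clusters that were lower (Celsr1, Cdh19, Cdh20 and Cdh22) and both that were higher had no match. A match describes the letters only, and binding was not measured in these files.

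The 3 Celsr genes, which encode the seven-pass cadherins homologous to fly Flamingo, all changed, and not in the same direction. Celsr2 (chromosome 3, 108390848 to 108416069, minus strand) had 25.2, 41.2 and 30.0 RPKM in siNC and 18.6, 18.3 and 19.3 RPKM in siQk. All siQk libraries thus lay in a narrow range below the lowest siNC library, and the transcript was 1.90-fold lower (log2 fold change -0.93, SE 0.16, FDR 0.00607, edgeR). Celsr1 (chromosome 15, 85898758 to 86034223, minus strand) was the scarcest of them, with 1.08, 2.08 and 1.497 RPKM in siNC and 0.731, 0.803 and 0.977 RPKM in siQk. Its groups did not overlap either, and it was 2.05-fold lower (log2 fold change -1.04, SE 0.23, edgeR FDR 0.0141), a call lost without siQk replicate 1 (edgeR FDR 0.0580) or siQk replicate 2 (edgeR FDR 0.0541). Celsr3 (chromosome 9, 108826023 to 108852969, plus strand), known for its role in axon tract formation, had 1.47, 2.44 and 1.46 RPKM in siNC. In siQk it had 4.50, 4.34 and 6.92 RPKM, so that the lowest siQk library lay above the highest siNC library. It was 2.65-fold higher (log2 fold change 1.41, SE 0.27, FDR 0.00847, edgeR), and no other called member rose as much. Celsr2 was the most abundant of the 3 in both groups, and the order of Celsr3 and Celsr1 in siNC (means of 1.79 ± 0.563 and 1.55 ± 0.499 RPKM, SD, n = 3) was within their spread. In siQk every library held more Celsr3 than any library held Celsr1. The calls for Celsr2 and Celsr3 held under all 17 alternative settings.

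**Figure D3:**
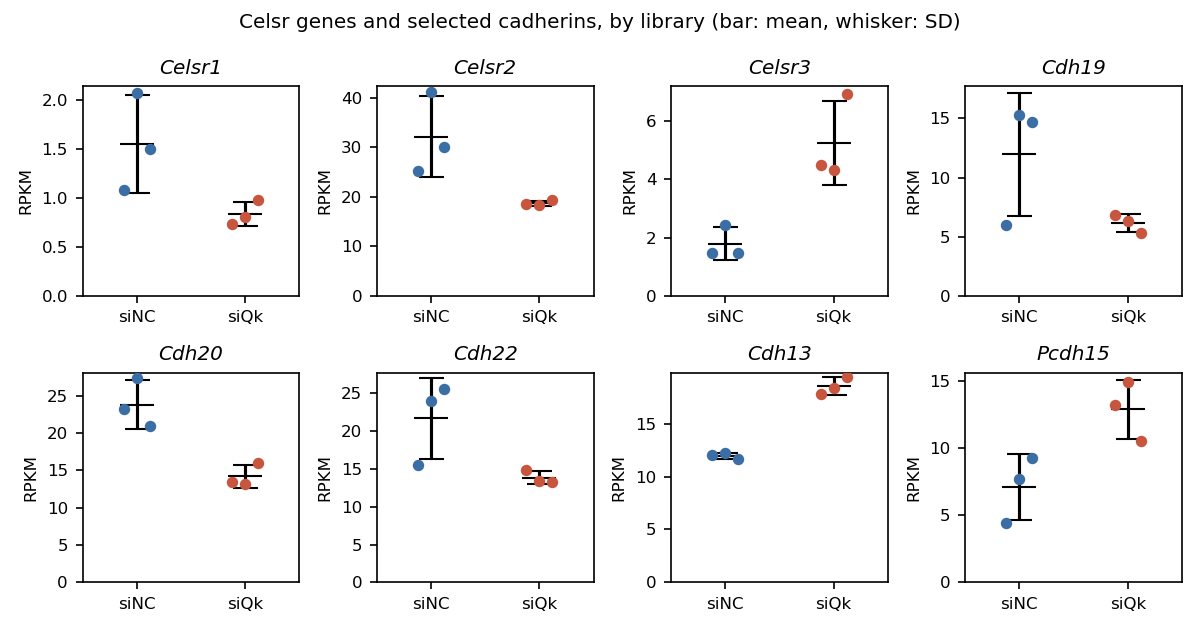
RPKM (vertical axes, from 0) of the Celsr genes, Cdh19, Cdh20, Cdh22, Cdh13 and Pcdh15 in the 3 siNC and 3 siQk libraries. Points are libraries, the long bar is the mean and the whiskers span 1 SD on either side. The groups separate in each panel except that of Cdh19, where siNC replicate 1 lies among the siQk libraries.

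Genes that act with the cadherins were read from lists, and 20 of 60 tested partners were called, which is 33.3% against 31% of all genes. Leaving out siQk replicate 1 left 11 of these calls, and 19.8% of all genes were called then. Leaving out siQk replicate 2 left 13, and 21.5% of all genes were called. Of 12 partners of the Celsr proteins in planar polarity, 11 were tested, and 4 were lower and 1 higher (45.5% in all). The receptor Fzd3, which acts with Celsr3 in axon guidance, fell from a mean of 29.1 to 16.1 RPKM (log2 fold change -1.01, SE 0.10, FDR 0.00109, edgeR). The cytoplasmic protein Prickle1 fell from 26.3 to 11.3 RPKM (log2 fold change -1.39, SE 0.29, edgeR FDR 0.0117), and Ankrd6, the homologue of fly Diego, from 2.78 to 1.85 RPKM (log2 fold change -0.73, edgeR FDR 0.0253). Ankrd6 was not called under 7 of the 17 settings, among them the removal of any library except siNC replicate 1 (edgeR FDR 0.0573 to 0.0868). Of the Dishevelled genes, Dvl3 was lower (log2 fold change -0.44) and Dvl1 higher (0.35). Vangl2 (-0.03), Scrib (-0.06) and Vangl1 (-0.53) were among the 6 that were not called.

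Neither of the 2 tested type I cadherins was called by edgeR's quasi-likelihood test, although 1 of them had an unadjusted p under 0.05 and 1 was called by DESeq2. Cdh2, the N-cadherin of neural cells, had 49.5, 66.6 and 65.3 RPKM in siNC and 56.7, 53.1 and 54.8 RPKM in siQk. Its siNC replicate 1 value lay below every siQk value, and the log2 fold change was -0.29 with a 95% confidence interval of -0.52 to -0.06 (edgeR FDR 0.0563). Without siNC replicate 1 it was called (log2 fold change -0.38, edgeR FDR 0.0140). R-cadherin, Cdh4, had 2.09, 3.08 and 3.31 RPKM in siNC and 3.86, 3.47 and 3.82 RPKM in siQk, with no overlap between the groups. After TMM scaling its log2 fold change was 0.25 (95% confidence interval -0.10 to 0.60, edgeR FDR 0.212). Cdh1, the E-cadherin of epithelia, was near absent with 0 to 12 tags in a library and was not tested, and its epithelial companions Epcam and Krt18 reached 0.364 and 0 RPKM. Cdh3 and Cdh15 were not tested either.

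Catenins connect the classical cadherins to actin. Of 12 catenins and junction linkers 11 were tested and 4 were called, all lower, which is 36.4% against 17.2% of all genes called lower and 31% called in either direction. Ctnna1, the αE-catenin that binds actin, fell from 127 to 91.8 RPKM (log2 fold change -0.62, SE 0.09, FDR 0.00407, edgeR), while Ctnna2, the neural αN-catenin, was at 38.6 RPKM in siNC with a log2 fold change of -0.10 and was not called. Pkp4, a relative of p120 catenin, fell from 35.9 to 24.7 RPKM (log2 fold change -0.69, SE 0.14, edgeR FDR 0.0115), a call lost without siQk replicate 1 (edgeR FDR 0.0510). Ctnnb1, the β-catenin that is also a Wnt effector, went from 216 to 193 RPKM (log2 fold change -0.31, SE 0.07, edgeR FDR 0.0157), and Ctnnd2 had a log2 fold change of -0.27. The Ctnnb1 call was lost under 6 of the 17 settings, among them the removal of any 1 siQk library (edgeR FDR 0.0493 to 0.0574).

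Type II cadherins share the catenin-binding tail of type I but differ in the adhesive interface. Of 13 genes 9 were tested, and Cdh19, Cdh20 and Cdh22 were called lower, with none called higher. That is 33.3%, near the 31% of all genes called in either direction, of which 17.2% were called lower and 13.8% higher. Cdh20 (chromosome 1, 104768340 to 104995481) had 23.2, 27.4 and 20.9 RPKM in siNC and 13.4, 13.2 and 16.04 RPKM in siQk. It was 1.87-fold lower without overlap between groups (log2 fold change -0.90, SE 0.13, FDR 0.00376, edgeR). Cdh22 (chromosome 2, 165111501 to 165234924) had 15.5, 23.97 and 25.5 RPKM in siNC and 14.8, 13.4 and 13.3 RPKM in siQk. Its groups were separated by a small margin, set by siNC replicate 1, and it was 1.73-fold lower (log2 fold change -0.79, SE 0.15, FDR 0.00918, edgeR). Both calls held under all 17 settings. Cdh19 (chromosome 1, 110888002 to 110977601), which is known from Schwann cell precursors, had 6.0009, 15.2 and 14.7 RPKM in siNC and 6.83, 6.32 and 5.35 RPKM in siQk. The siNC replicate 1 value lay among the siQk values. The log2 fold change was -1.09 (SE 0.31, edgeR FDR 0.0316), and the call was lost under 8 of the 17 settings, including the removal of any library except siNC replicate 1 (edgeR FDR 0.0745 to 0.0944).

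The remaining 6 tested type II cadherins were not called, and they differed in sign. Cdh11, a mesenchymal and neural cadherin, had 34.6, 41.1 and 28.1 RPKM in siNC and 27.0, 23.99 and 30.4 RPKM in siQk (log2 fold change -0.51, 95% confidence interval -0.90 to -0.12, edgeR FDR 0.0501). Cdh11 was called by DESeq2 (adjusted p = 0.0113), by edgeR's likelihood ratio test (FDR 0.0143), and without siNC replicate 3 (log2 fold change -0.66, edgeR FDR 0.0110). Cdh6 had 10.4, 12.2 and 14.0003 RPKM in siNC and 9.64, 9.14 and 11.6 RPKM in siQk (log2 fold change -0.42, edgeR FDR 0.0358), and its P of 0.0116 missed the cutoff of 0.01. Cdh6 was called under 6 of the 17 settings. Among them were DESeq2 (adjusted p = 0.00750), edgeR's likelihood ratio test (FDR 0.0129) and the removal of siQk replicate 3 (log2 fold change -0.53, edgeR FDR 0.0216). Cdh10 had 2.24, 3.50 and 2.95 RPKM in siNC and 3.997, 4.60 and 3.50 RPKM in siQk, so that the groups met at 3.50 without overlapping (log2 fold change 0.33, 95% confidence interval -0.04 to 0.70). Cdh24 also lay higher in all siQk libraries, at 2.37 to 3.39 RPKM against 1.07 to 2.08 RPKM (log2 fold change 0.82, edgeR FDR 0.0651). Cdh7 and Cdh8 were scarce, with siNC means of 0.352 and 1.25 RPKM and log2 fold changes of -0.95 and -0.74. Cdh5, the VE-cadherin of endothelium, had 0 to 1 tag in a library and was not tested.

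Cdh13, or T-cadherin, is held in the membrane by a GPI anchor and lacks the tail that binds catenins. It lies on chromosome 8 from 118140017 to 119324929 on the plus strand. Its levels were tightly grouped, with 12.03, 12.2 and 11.6 RPKM in siNC and 17.8, 18.4 and 19.4 RPKM in siQk. No siQk value came near the siNC values. The log2 fold change was 0.48 (SE 0.07, FDR 0.00387, edgeR), or 1.40-fold, and the call held under all 17 settings.

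Cdh23 and Pcdh15 are known as the partners of the tip link of inner-ear hair cells, and the data showed very different levels for them. Pcdh15, which is also a known transcript of oligodendrocyte precursors, had 4.39, 7.69 and 9.22 RPKM in siNC and 13.2, 14.9 and 10.5 RPKM in siQk. Every siQk library lay above every siNC library, but the siNC values spread widely and the change was not called (log2 fold change 0.72, 95% confidence interval 0.15 to 1.29, FDR 0.0540, edgeR's quasi-likelihood test). It was called by DESeq2 (adjusted p = 0.00875), by edgeR's likelihood ratio test (FDR 0.0125), and without siNC replicate 3 (log2 fold change 0.92, edgeR FDR 0.0304). Cdh23 had 0.0825, 0.160 and 0.0548 RPKM in siNC and 0.0406, 0.0338 and 0.0759 RPKM in siQk, at the edge of the filter on low values. The groups overlapped and the interval was wide (log2 fold change -1.12, 95% confidence interval -2.26 to 0.02, edgeR FDR 0.108).

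The δ1-protocadherins Pcdh1, Pcdh7, Pcdh9 and Pcdh11x share a cytoplasmic motif that binds protein phosphatase 1. All 4 were tested, and Pcdh7 was called lower (25%, against 31% of all genes called). Pcdh7 (chromosome 5, 57716145 to 58133236, plus strand) had 19.2, 16.6 and 16.7 RPKM in siNC and 14.5, 13.8 and 16.1 RPKM in siQk. The groups were separated by a small margin (log2 fold change -0.40, SE 0.11, edgeR FDR 0.0312), and the call was lost under 8 of the 17 settings, including the removal of siNC replicate 1 (log2 fold change -0.28, edgeR FDR 0.0596) or 2, or of siQk replicate 1 or 2 (edgeR FDR 0.0396 to 0.105). An antisense gene model covers 21.1% of its exons, and with a library kit that does not keep strand these reads cannot be told apart. Pcdh9 had 12.2, 12.1 and 13.2 RPKM in siNC and 12.4, 11.5 and 12.2 RPKM in siQk, the least spread of the group (log2 fold change -0.21, SE 0.06, edgeR FDR 0.0402). Its P of 0.0137 missed the cutoff, and it was called by DESeq2 (adjusted p = 0.0143) and at the FDR cutoff of 0.05. Pcdh1 ranged from 12.2 to 16.99 RPKM in siNC and from 14.3 to 16.1 RPKM in siQk (log2 fold change -0.09, 95% confidence interval -0.35 to 0.16). Pcdh11x ranged from 1.99 to 2.67 RPKM and from 2.48 to 2.63 RPKM (log2 fold change 0.00, 95% confidence interval -0.27 to 0.27).

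The δ2-protocadherins Pcdh8, Pcdh10, Pcdh17, Pcdh18 and Pcdh19 include members whose cytoplasmic tails recruit the WAVE complex, which drives actin branching. Again 1 gene was called, here of 5 (20%, against 31% of all genes called). Pcdh18 (chromosome 3, 49743291 to 49757383, minus strand) was the scarcest, with 0.329, 0.302 and 0.372 RPKM in siNC and 0.167, 0.145 and 0.217 RPKM in siQk. The groups did not overlap and it was 2.09-fold lower (log2 fold change -1.06, SE 0.21, FDR 0.00997, edgeR), a call that held under all 17 settings. Pcdh10, the most abundant, had 24.3, 31.4 and 25.7 RPKM in siNC and 29.3, 28.3 and 30.0 RPKM in siQk, values that interleave (log2 fold change -0.04, 95% confidence interval -0.28 to 0.19). Its sign depended on the scaling, with a log2 fold change of 0.11 by library size only. Pcdh17 ranged from 12.5 to 20.1 RPKM in siNC and from 15.8 to 19.5 RPKM in siQk (log2 fold change -0.14, 95% confidence interval -0.62 to 0.33). Pcdh19, the gene on the X chromosome, had 2.96, 4.36 and 3.78 RPKM in siNC and 3.30, 3.23 and 3.45 RPKM in siQk (log2 fold change -0.30, edgeR FDR 0.0900). Without siNC replicate 1 it was called (log2 fold change -0.40, edgeR FDR 0.0311). Pcdh8 ranged from 2.06 to 3.88 RPKM in siNC and from 2.57 to 2.78 RPKM in siQk (log2 fold change -0.21, 95% confidence interval -0.72 to 0.30), and 9.61% of its exons are shared with another gene model.

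Of 11 measured genes of the WAVE complex and of kinases bound by protocadherin tails, 10 were tested, and 5 were lower and 1 higher (60% in all, against 31% of all genes). Cyfip1, a WAVE complex subunit, fell from 28.0 to 13.95 RPKM (log2 fold change -1.16, SE 0.11, FDR 0.00104, edgeR). Wasf2, which encodes WAVE2, fell from 19.6 to 14.9 RPKM (log2 fold change -0.55, SE 0.08, FDR 0.00394, edgeR), and the subunits Nckap1, Abi1 and Abi2 had log2 fold changes of -0.33, -0.25 and -0.27. Wasf3, encoding WAVE3, rose from 10.7 to 16.3 RPKM (log2 fold change 0.46, SE 0.08, FDR 0.00775, edgeR). Wasf1 (-0.02) and Cyfip2 (0.24), the relatives best known from neurons, were not called.

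The clustered protocadherins lie side by side on chromosome 18, and their rows do not all measure the same stretch of transcript. Of the 58 rows 57 carried whole tag numbers in all libraries, and Pcdhga6 was the exception, so that there is no sign of tags divided by weight between the clustered rows. For 33 of the 36 α and γ rows the deposited exon length was 2346 to 2961 bases. Of these rows 32 have an annotated first exon, which the row exceeds by 306 bases at most (Pcdhgb8), and Pcdhgc5 is shorter than its longest annotated first exon by far. The Pcdha2 row is 5216 bases long, 2715 more than its longest annotated first exon, and the Pcdhgb2 row is 4482 bases long, 1940 more. The annotated constant exons amount to 2860 bases in the α array and 2116 in the γ array. Pcdha2 held 47.3% to 49.7% of the α tags, and Pcdhgb2 held 40.4% to 41.3% of the γ tags. These tags were 0.795 to 0.872 times (α) and 0.823 to 0.856 times (γ) the number that the constant exons would hold at the summed density of the other rows. The levels of Pcdha2 and Pcdhgb2 are therefore not given as levels of those 2 first exons. Pcdha11, at 3835 bases, also exceeds its first exon, by 1297.

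**Figure D4:**
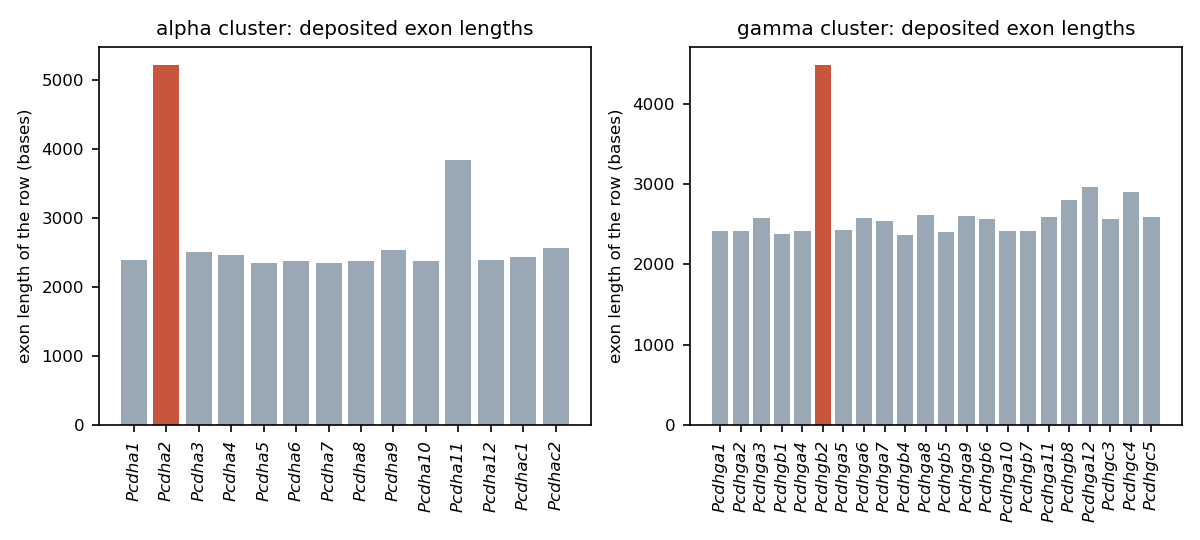
Deposited exon length in bases (vertical axis, from 0) of each α and γ row in chromosomal order. Red bars mark Pcdha2 (5216 bases) and Pcdhgb2 (4482 bases), the rows whose length exceeds the first exon by about the length of the constant exons, while 33 of the other 34 rows lie between 2346 and 2961 bases.

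Within the clusters 42 of 58 rows were tested, and 19 were called, all lower (45.2%). None was called higher by edgeR's quasi-likelihood test, by its likelihood ratio test or by DESeq2, and 0 rows with a positive log2 fold change had an unadjusted p under 0.05. The direction was the same for nearly all of them, with 40 log2 fold changes below 0 and 2 above, and the median was -0.45. The calls comprised 2 of 7 α rows (28.6%), 14 of 21 β rows (66.7%) and 3 of 14 γ rows (21.4%), against 17.2% of all genes called lower. The α calls were Pcdha10 and the Pcdha2 row, whose level is not that of its first exon. The same holds for Pcdhgb2, which is among the tested γ rows and was not called. Without siNC replicate 2 there were 10 β and 10 γ rows called, with 28.6% of all genes called. The difference between the arrays was not tested.

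**Figure D5:**
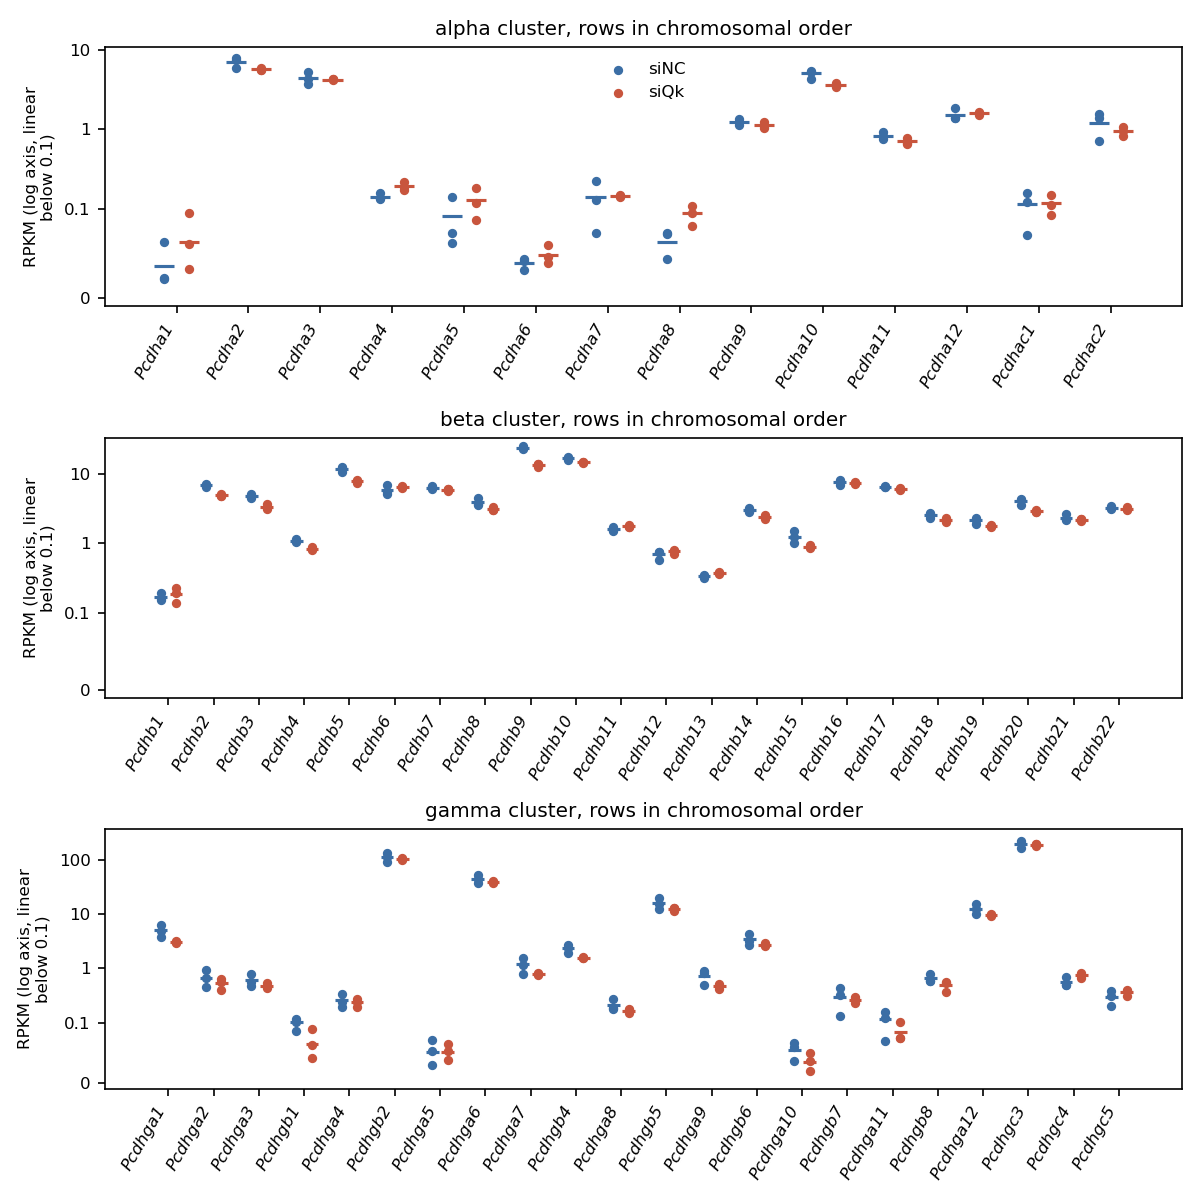
RPKM (vertical axis, logarithmic above 0.1 and linear below) of every clustered protocadherin row in each library, in chromosomal order. Points are libraries and bars are group means, with siNC in blue and siQk in red. Pcdhgc3 stands highest, Pcdhb9 leads the β array in siNC, and many α and γ rows lie below 1 RPKM.

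To avoid the question of which row holds which tags, each array was also summed per library. The β sum was 372, 391 and 399 CPM in siNC and 313, 305 and 307 CPM in siQk. All siQk sums lay below all siNC sums, and the array was 28.3% lower (log2 fold change -0.48, SE 0.06, 95% confidence interval -0.62 to -0.35, FDR 0.00187, edgeR), a call that held under all 17 settings. The α sum was 62.4, 82.9 and 78.6 CPM in siNC and 62.0, 61.5 and 65.2 CPM in siQk. Here siNC replicate 1 lay within the siQk range, and the log2 fold change was -0.39 (SE 0.09, 95% confidence interval -0.61 to -0.18, edgeR FDR 0.0157). It was -0.35 without the Pcdha2 row (edgeR FDR 0.0267), and the call was lost without siNC replicate 3, siQk replicate 1 or siQk replicate 2 (edgeR FDR 0.0357, 0.0633 and 0.0599) and by library size only (log2 fold change -0.25, edgeR FDR 0.107). The γ sum was the largest, with 1289, 1053 and 1499.8 CPM in siNC and 1199.6, 1184 and 1109 CPM in siQk. The siNC libraries spread around the siQk ones, and the sum was not called (log2 fold change -0.29, SE 0.13, 95% confidence interval -0.60 to 0.02, edgeR FDR 0.120). It was called without siNC replicate 2, the lowest siNC library (log2 fold change -0.42, edgeR FDR 0.0122).

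In the β array, Pcdhb9 led both the siNC levels and the changes. It had 23.4, 25.4 and 22.8 RPKM in siNC and 13.9, 13.9 and 12.8 RPKM in siQk, and no value of one group came near the other. It was 1.96-fold lower (log2 fold change -0.97, SE 0.07, FDR 0.000603, edgeR). Its part of the summed β RPKM was 20.4% ± 1.33 in siNC and 14.6% ± 0.655 in siQk (SD, n = 3), so that in siQk Pcdhb10, with 14.8 RPKM, was the highest β row. Pcdhb5 had 12.2, 10.7 and 12.5 RPKM in siNC and 8.24, 7.95 and 7.54 RPKM in siQk (log2 fold change -0.73, SE 0.09, FDR 0.00214, edgeR). Pcdhb3 had 4.46, 5.12 and 4.72 RPKM in siNC and 3.69, 3.17 and 3.30 RPKM in siQk (log2 fold change -0.64, SE 0.10, FDR 0.00397, edgeR). In these rows too the groups were clearly apart, and all 3 calls held under all 17 settings. The other 11 called β rows had log2 fold changes from -0.62 (Pcdhb20) to -0.27 (Pcdhb7). Of the 7 that were tested and not called, Pcdhb16, Pcdhb21 and Pcdhb22 had log2 fold changes of -0.21, -0.24 and -0.21. The other 4, Pcdhb6, Pcdhb11, Pcdhb12 and Pcdhb13, lay between -0.02 and 0.01, with means of 5.87 RPKM for Pcdhb6 and 0.335 RPKM for Pcdhb13 in siNC. The number of called β rows was 5 by library size only, 5 and 6 without siQk replicate 1 or 2, and 7 to 10 without 1 of the other 4 libraries.

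In the α array 7 of 14 rows were tested. Pcdha10 had 4.36, 5.33 and 5.49 RPKM in siNC and 3.46, 3.62 and 3.80 RPKM in siQk. The groups did not overlap, and it was 1.55-fold lower (log2 fold change -0.63, SE 0.10, FDR 0.00478, edgeR) under all 17 settings. Pcdha3, its nearest row in level, had means of 4.43 and 4.22 RPKM and was not called (log2 fold change -0.22, edgeR FDR 0.212). Among the rows other than Pcdha2, Pcdha10 made up 33.9% ± 1.38 of the summed RPKM in siNC and 27.8% ± 0.920 in siQk, and Pcdha3 29.5% ± 2.36 and 32.4% ± 0.925 (SD, n = 3). The Pcdha2 row had 5.86, 7.90 and 7.37 RPKM in siNC and 5.63, 5.64 and 5.91 RPKM in siQk, with siNC replicate 1 inside the siQk range (log2 fold change -0.45, SE 0.10, edgeR FDR 0.0134). That call was lost without siQk replicate 1 or 2 (edgeR FDR 0.0564 and 0.0523). Pcdha9, Pcdha11, Pcdha12 and Pcdhac2 had log2 fold changes from -0.50 to -0.09 and were not called. Rows Pcdha1 and Pcdha4 to Pcdha8, together with Pcdhac1, had means of 0.192 RPKM or less in both groups and were not tested.

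The γ array was dominated by Pcdhgc3, a C-type isoform with roles of its own in neural cells. It had 207, 170.4 and 231 RPKM in siNC and 200.02, 202 and 182 RPKM in siQk, more than any other member of the family. The siNC values lay on both sides of the siQk values, and it was not called (log2 fold change -0.21, SE 0.12, 95% confidence interval -0.49 to 0.07, edgeR FDR 0.195), except without siNC replicate 2 (log2 fold change -0.33, edgeR FDR 0.0191). It made up 69.1% ± 1.34 of the γ RPKM in siNC and 72.4% ± 1.25 in siQk (SD, n = 3, without the Pcdhgb2 row). Pcdhga6 followed with means of 45.5 and 39.8 RPKM and was not called (log2 fold change -0.34, edgeR FDR 0.0711). The 3 called rows were of lower level. Pcdhga1 had 4.93, 3.74 and 6.45 RPKM in siNC and 2.92, 3.03 and 3.24 RPKM in siQk (log2 fold change -0.87, SE 0.19, edgeR FDR 0.0141). Pcdhgb4 had 2.37, 1.94 and 2.72 RPKM in siNC and 1.56, 1.57 and 1.63 RPKM in siQk (log2 fold change -0.71, SE 0.15, edgeR FDR 0.0125). Pcdhga12 had 12.4, 10.2 and 15.9 RPKM in siNC and 9.55, 9.38 and 10.1 RPKM in siQk (log2 fold change -0.56, SE 0.15, edgeR FDR 0.0260). In all 3 the siQk values were close together below a wide siNC range. Without siQk replicate 1 or 2 none of these calls held (edgeR FDR 0.0473 to 0.0858), and those of Pcdhga1 and Pcdhga12 were also lost without siNC replicate 1 (edgeR FDR 0.0396 and 0.0663). That of Pcdhga12 was lost without siNC replicate 3 or siQk replicate 3 as well (edgeR FDR 0.0469 and 0.0574). Without siNC replicate 2, the siNC library lowest in these rows, 10 γ rows were called, with 28.6% of all genes called. There was 1 called without siNC replicate 1 (25.4% of all genes) and 0 without siQk replicate 1 or 2 (19.8% and 21.5%). The C-type row Pcdhgc4 was the only tested γ row above 0 (log2 fold change 0.25, edgeR FDR 0.332).

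Genes known to act on the choice of first exon, among them Ctcf and the cohesin subunits that fold the array, were compared as a list of 12. All 12 were tested, and 0 were called by edgeR's quasi-likelihood test, against 31% of all tested genes. In that test 1 had an unadjusted p under 0.05 (Dnmt3b, log2 fold change 0.45). DESeq2 called 1 of the 12, against 39.1% of all tested genes. Ctcf had a mean of 32.6 RPKM in siNC and a log2 fold change of 0.05, and the cohesin genes Rad21, Smc1a and Smc3 had log2 fold changes of -0.07, 0.10 and 0.01. Smchd1, which acts in the silencing of the clusters, had a log2 fold change of -0.05.

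Cadherins and protocadherins are cut at the cell surface by ADAM proteases and then inside the membrane by γ-secretase. Of 8 such proteases and subunits 3 were called, all lower (37.5%, against 31% of all genes called and 17.2% called lower). Adam17 fell from 26.8 to 15.2 RPKM (log2 fold change -0.97, SE 0.13, FDR 0.00294, edgeR). Adam10, the main sheddase of Cdh2 and of γ-protocadherins, had 73.2 and 61.5 RPKM (log2 fold change -0.40, SE 0.11, edgeR FDR 0.0305), and Aph1a, a γ-secretase subunit, 11.6 and 9.21 RPKM (log2 fold change -0.49, SE 0.12, edgeR FDR 0.0198). The Adam10 call was lost under 8 of the 17 settings and that of Aph1a under 6, with the removal of siNC replicate 2, siQk replicate 1 or siQk replicate 2 among them for both (edgeR FDR 0.0481 or more). Adam10 was also not called without siNC replicate 3 or siQk replicate 3, nor Aph1a without siNC replicate 1 (edgeR FDR 0.0565 to 0.0759).

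The 28 members that were not tested, 12 outside the clusters and 16 within them, had at most 170 tags or 0.429 RPKM in any library. Of the 12 outside the clusters 7 had no tag in at least 1 library. They include Cdh1, Cdh3, Cdh5, Cdh9, Cdh12, Cdh15 to Cdh18, Cdh26, Pcdh12 and Pcdh20, and no test was made at these levels. The RPKM ranges of the groups did not overlap for 6 of the 28. Of all tested genes 58.3% had non-overlapping ranges, but these lie above the filter on low values and are not a like set. The share among other untested genes is not given here. Of these 6, Cdh18 was lower and Cdh12, Cdh26, Pcdh20, Pcdha4 and Pcdha8 were higher in the siQk libraries.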

How the data were processed

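Polyadenylated RNA was sequenced as paired-end reads by the authors, mapped to mm10 with OLego and quantified per gene with Quantas (the tool versions and gene models are not given in the sources used here). Per library the authors deposited an estimated count of tags, which can carry decimals, the exon length of each gene in bases, and the RPKM. The sources leave unstated whether tags are single reads or pairs, and the library kit does not keep strand. From these files the following was computed. Estimated counts were rounded, genes with an average logCPM over 0 were kept (12505 of 23038), and siQk was tested against siNC with the quasi-likelihood test of edgeR 4.0.16 in R 4.3.3 after TMM normalization, with the group as the only term. Calls needed P under 0.01 and FDR under 0.1, adjusted by Benjamini-Hochberg over all tested genes. Standard errors were obtained from the size of the log2 fold change and the root of its F statistic. Where the text counts 17 settings, these are the alternatives of the closing section.

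The members and the lists of partners and markers were chosen with earlier results of these data known. The text names members called changed outside the clusters, tested members there with an average logCPM over 3, the tip-link cadherins, Cdh1, Cdh2 and Cdh5, and in each cluster the highest row and up to 3 called rows with the lowest log2 fold change. In each partner list up to 3 called genes with the largest absolute log2 fold change are named. Other genes named were chosen after their values were seen. A few list genes are not reported here. Cluster sums were tested in the same way after each array had been replaced by 1 row. Locations come from RefSeq (GRCm38.p6), in which all 96 members were matched by Entrez identifier, and exon structures and 3'UTRs from GENCODE M21 (GRCm38).

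No libraries of a group differed by as little as sampling noise (chi-square per degree of freedom 36.3 or more), and each counted as 1 replicate. The labels call them biological replicates. Since 3 libraries against 3 allow no exact two-sided permutation p under 0.1, none is given. The script for edgeR was first tested on simulated data. Alternatives were DESeq2 1.42.0, edgeR's likelihood ratio test, other normalizations and filters, unrounded tags, an FDR cutoff of 0.05, the replicate number as a block and each library left out. The FDR cutoff of 0.05 replaced both cutoffs, that on P included. It was the looser rule here, with 31 members called against 28, so that no call could be lost under it. Thinning to the smallest library and sums without the rows holding constant exons were added after the data had been seen.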

Additional observations from a re-analysis of the deposited data

How the results depend on the processing

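Scaling by library size only, which shifted the median log2 fold change of all genes to 0.16, called 15 members, all of them among the 28, with 13 lower ones against 26, 5 β rows against 14 and 1 α row against 2, and gave the α sum a log2 fold change of -0.25 that was not called. By library size only, 34.8% of all tested genes were called. DESeq2 and edgeR's likelihood ratio test called 39.1% and 34.4% of all tested genes, against 31%. Each called 4 members higher, against 2. They called 15 and 14 members outside the clusters, against 9, and the likelihood ratio test called 6 γ rows, against 3. With each cluster as 1 summed row, 11 members or sums were called, the α and β sums among them. The 58 clustered rows counted as 3 in that fit, so that this count cannot be set against the 28. The share of all genes called in that fit is not given here. Leaving out 1 library gave 12 to 31 calls among the members, 10 to 28 lower and 2 to 3 higher ones, 6 to 10 outside the clusters, 1 to 3 in α, 5 to 10 in β and 0 to 10 in γ, and 11 to 21 partner genes, against 20. Without siQk replicate 1, 12 members and 11 partners were called, and without siQk replicate 2, 13 of each. Of all genes, 19.8% and 21.5% were called in these fits. The 31 members came without siNC replicate 2. In the same way the log2 fold change of the α sum ranged from -0.47 to -0.32, of the β sum from -0.49 to -0.46 and of the γ sum from -0.42 to -0.19. With the replicate number as a block, 22 members (32.4%), 7 β rows and 12 partners were called, and 22.4% of all genes. For libraries of the same number, the correlations of their deviations from the group means were -0.05, -0.15 and -0.34. For pairs of unlike number they were -0.17 to 0.30. With 3 libraries per group these values cannot settle whether the numbers pair the samples. For these results the cause of the change was not tested.

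Of the 17 named members that were called, 10 stayed called under all 17 settings, and the others lost the call in 33 of 289 values, with none reversed. In the clusters the named called rows are those with the lowest log2 fold changes, so that this share does not stand for all 28 calls. Of the 28, 12 stayed called without siQk replicate 1. Of 15 named members that were not called, 5 changed sign. Their log2 fold changes were 0.017 (Pcdh10) with upper quartile factors, 0.11 (Pcdh10), 0.052 (Pcdh1) and 0.013 (Pcdh17) by library size only, and, for Pcdh11x, -0.0073 with RLE factors, -0.0085 with DESeq2 and -0.00055 with the likelihood ratio test. With each library left out in turn they ranged from -0.11 to 0.060 for Pcdh10, -0.36 to 0.084 for Pcdh8, -0.17 to 0.018 for Pcdh1 and -0.059 to 0.11 for Pcdh11x, and the highest value of all 4 was the one without siNC replicate 2. Depth limits the 28 untested members, and a count of 0 in a library allows up to 0.0213 to 0.0516 CPM, for counting error only.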

Other observations

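Cadherin-superfamily genes outside the naming rule were also read from a list, of which 19 were measured and 8 tested. Clstn2, a calsyntenin of synaptic membranes, had 0.757, 0.9998 and 1.36 RPKM in siNC and 0.355, 0.464 and 0.433 RPKM in siQk, without overlap (log2 fold change -1.46, SE 0.22, FDR 0.00373, edgeR's quasi-likelihood test). Fat1, a giant atypical cadherin that acts on actin and on growth control, had 16.7, 21.8 and 21.9 RPKM in siNC and 10.8, 10.7 and 12.5 RPKM in siQk (log2 fold change -0.97, SE 0.11, FDR 0.00150, edgeR). Both calls held under all 17 settings. Its relatives Fat3 and Fat4 and the Fat4 ligand Dchs1 had log2 fold changes of 0.12, 0.22 and 0.29 and were not called, nor was Clstn1 (-0.21), the most abundant of the list at 89.2 RPKM in siNC. Desmosomal cadherins were at or near 0, with Dsc2, Dsc3 and Dsg1a at 0 RPKM on average in siNC.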
